A study of Mus musculus with 9 samples.

Results

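The genes described here are 10 receptors of the TGF-beta superfamily, measured as mRNA in EGFP-SSC, an established line of mouse spermatogonial stem cells (SSCs) that expresses green fluorescent protein, during its differentiation in vitro. They were chosen by name and not by any measured value, and they are 10 of the 46078 gene identifiers counted. The type I receptors were Acvr1, Acvr1b, Bmpr1a, Bmpr1b and Tgfbr1, the type II receptors were Acvr2a, Acvr2b, Bmpr2 and Tgfbr2, and the type III receptor was Tgfbr3. The 9 libraries of poly-A RNA came from 3 biological replicates at each of 3 times. At 0 h the cells, wild type in their labels, grew undifferentiated on mouse embryonic fibroblast feeders stopped with mitomycin C, with GDNF, basic fibroblast growth factor and epidermal growth factor in the medium. At 24 h and 48 h they had been mixed in equal numbers with testicular somatic cells of busulfan-treated mice aged 3 to 7 days, and the medium then held retinoic acid, BMP-4/7 at 20 ng/ml each, activin A at 100 ng/ml, testosterone, FSH, BPE and KSR. EGFP-positive cells were sorted after 24 h and 48 h. All samples share 1 cell line, and nothing in the labels says how the replicates were separated, so p-values measure the spread between these cultures alone.

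Ligands of the superfamily are dimers that join a pair of type II with a pair of type I receptors, all of them serine/threonine kinases of the cell surface. The type II kinase phosphorylates the type I kinase, which then phosphorylates receptor-activated SMADs. Activins bind ACVR2A or ACVR2B and signal mainly through ACVR1B to SMAD2 and SMAD3, as TGF-beta does through TGFBR2 and TGFBR1. BMPs bind BMPR2, ACVR2A or ACVR2B with BMPR1A, BMPR1B or ACVR1 and signal to SMAD1, SMAD5 and SMAD9. TGFBR3, betaglycan, has no kinase, presents TGF-beta to its receptors and helps inhibin to block activin. In the testis, BMP4 and activin A are known as signals from somatic cells to spermatogonia, and both were added to this medium.

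The receptor genes lie apart in the mouse genome (GRCm38). Of the type II genes, Acvr2b spans chr9:119402118-119434995 on the plus strand and Tgfbr2 spans chr9:116084293-116175360 on the minus strand of the same chromosome. Bmpr2 spans chr1:59763400-59879014 and Acvr2a chr2:48814109-48903269, both on the plus strand. The type I genes are Acvr1 at chr2:58388644-58567157 (minus), Acvr1b at chr15:101174067-101213684 (plus), Bmpr1a at chr14:34410734-34503341 (minus), Bmpr1b at chr3:141837136-142169425 (minus) and Tgfbr1 at chr4:47353222-47414931 (plus). Tgfbr3 spans chr5:107106570-107289629 on the minus strand. Exons of 3 receptors overlap another gene, and the strand setting of the counting is not given in the sources used here, so part of their reads could belong to the partner. The antisense gene Orc4 covers 7.84% of the exon bases of Acvr2a, the antisense Gm17110 covers 4.57% of Bmpr1a, and Gm43422, on the same strand, covers 4.54% of Tgfbr3. Besides these partners, only Tgfbr2 shared sequence with another gene, over 1.12% of its longest transcript with Tmco3, at 97% identity over at least 75 bases.

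Promoter windows of RefSeq (GRCm38.p6), 300 bases from 250 before to 50 after a transcript start, were held for 9 of the 10 receptors, 12 windows in all. Stretches of 3 of them that lie upstream of the exons are printed, because Acvr2b was the receptor called higher at both 24 h and 48 h against 0 h, Tgfbr2 the one called lower at both, and Bmpr1b the one with few CpG in all of its windows. CpG dinucleotides are in capitals, 5′ to 3′ on the strand of the gene. The Bmpr1b start used here lies within the gene's span in GENCODE M21, and the printed stretch ends where an annotated exon begins.
Acvr2b, chr9:119401928-119402117, plus strand: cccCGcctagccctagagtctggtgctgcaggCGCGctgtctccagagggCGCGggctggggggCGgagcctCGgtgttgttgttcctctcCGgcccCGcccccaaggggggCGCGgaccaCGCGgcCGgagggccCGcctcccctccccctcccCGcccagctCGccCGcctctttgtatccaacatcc
Tgfbr2, chr9:116175361-116175613, minus strand: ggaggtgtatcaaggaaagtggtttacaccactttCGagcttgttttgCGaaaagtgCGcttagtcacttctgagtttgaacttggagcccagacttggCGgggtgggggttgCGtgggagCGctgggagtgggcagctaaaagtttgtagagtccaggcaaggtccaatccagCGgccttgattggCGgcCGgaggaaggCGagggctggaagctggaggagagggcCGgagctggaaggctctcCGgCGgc
Bmpr1b, chr3:141982265-141982514, minus strand: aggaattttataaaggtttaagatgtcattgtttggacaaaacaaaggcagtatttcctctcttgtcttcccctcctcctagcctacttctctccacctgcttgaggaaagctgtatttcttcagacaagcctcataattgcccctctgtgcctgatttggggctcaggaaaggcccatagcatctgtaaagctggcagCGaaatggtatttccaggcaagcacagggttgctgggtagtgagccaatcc

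The Acvr2b stretch holds 18 CpG in 190 bases, the Tgfbr2 stretch 13 in 253 bases and the Bmpr1b stretch 1 in 250 bases. In the whole windows, Acvr2a had the most CpG with 54, followed by Acvr1 and Acvr1b with 51 each and Bmpr1a with 48. The 3 Bmpr1b windows held 5 to 6, close to the median of 7 over all 32851 promoters. Tgfbr1 had a window with 34 CpG at its first start and 1 with 3 CpG at an inner start. On either strand, the letters GGCGCC were in a window of Acvr1b, Bmpr1a, Bmpr2 and Tgfbr1 and in 11.9% of all promoters. GTCTAGAC, a palindrome to which SMAD3 and SMAD4 are known to bind, was in 0 of the 12 windows and in 0.213% of all promoters. AGGTCA, the half-site of nuclear receptors such as the retinoic acid receptors, was in 1 window of Bmpr1b and in 16.3% of all promoters. These matches describe letters in a window and not binding.

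The libraries held 16825251 to 22201892 counts, and replicates differed by more than sampling noise in each of the 9 pairs. Germ cell markers, summed over 10 genes, were between 2430 and 3280 CPM (counts scaled to a common library total after TMM normalization) in the 0 h libraries, between 3480 and 3630 after 24 h and between 2690 and 2860 after 48 h. This sum mixes opposite moves, with 3 markers called higher and 2 lower at 24 h against 0 h. Stra8 rose from 2.57 to 918.2 CPM and Kit from 8.4 to 571.3, while Etv5 fell from 522.7 to 11.35 and Gfra1 from 229.7 to 36.6. Dazl, the most abundant, was at 861.7 CPM at 0 h and 732.2 at 24 h, a change that was not called. The sums of other lists moved with time as well. The 7 fibroblast and stromal markers, led by Col1a1, went from 705 to 841 CPM at 0 h to 3620 to 3910 at 48 h, the 6 peritubular myoid markers from 13.7 to 15.8 up to 267 to 317, the 8 Sertoli markers from 19.1 to 19.7 up to 52.7 to 53.3, and the 6 Leydig markers from 4.53 to 6.77 up to 25.6 to 31.9. The 5 endothelial markers went from 43.2 to 47.8 down to 12.3 to 12.7 CPM and the 6 macrophage markers from 16.4 to 17.7 down to 7.48 to 8.31. The single markers of these lists did not all move with their sum. Cd68 carried the macrophage sum (15.6 CPM at 0 h, 5.42 at 48 h) while Csf1r and Cd14 were called higher at 24 h, Tek was called higher in the endothelial list at both later times, and Sox9 and Rhox5 were called lower in the Sertoli list at 24 h. No 0 h library exceeded 3 counts for Actg2, Dhh, Hsd3b1, Insl3, Lhcgr, Emcn, Adgre1 and C1qa, and no 48 h library did for Lhcgr, Emcn, C1qa and Ptprc. The part of other cells in the receptor values was not tested. In these bulk samples, fewer cells with an mRNA and less of it per cell cannot be told apart.

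All 10 receptors were detected in every library, with 85 counts for Bmpr1b in a 24 h library as the lowest and 3228 for Bmpr1a in a 0 h library as the highest. Levels were compared between receptors per kilobase of exon, as FPKM computed here from the deposited counts. At 0 h, Bmpr1a was the most abundant with 21.9 ± 9.65 FPKM (SD, n = 3), or 34% of the sum over the 10 receptors. It was followed by Acvr1b with 12.7 ± 0.951 and Acvr2b with 9.96 ± 1.15 FPKM. Bmpr1a and Acvr1b overlapped between libraries, Acvr1b and Acvr2b did not. Tgfbr1 came next with 6.99 ± 3.27 FPKM, and its highest library, at 10.1, was above the lowest of Acvr2b, at 8.67. The remaining receptors were lower, Acvr2a at 3.34 ± 1.14, Acvr1 at 2.38 ± 0.0783, Tgfbr2 at 2.30 ± 0.259, Bmpr2 at 2.02 ± 0.901, Bmpr1b at 1.55 ± 0.423 and Tgfbr3 at 1.22 ± 0.315 FPKM. From Tgfbr1 down, each receptor overlapped the next between libraries, so neighbours in this order were not separated at 0 h. Some receptors further apart did not overlap. Each Tgfbr1 library was above all libraries of Acvr1, Tgfbr2, Bmpr2, Bmpr1b and Tgfbr3. Each library of Acvr2a, Acvr1 and Tgfbr2 was above all libraries of Bmpr1b and Tgfbr3. Within each 0 h library, Tgfbr1 was also above Acvr2a.

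At 24 h Acvr2b stood second with 13.6 ± 0.913 FPKM, above Acvr1b at 10.9 ± 0.403 with no overlap between libraries, and Bmpr1a stayed first with 19.0 ± 1.34 FPKM. Tgfbr1 followed with 7.98 ± 0.313 FPKM, then Acvr2a with 3.31 ± 0.667, Acvr1 with 2.87 ± 0.172 and Bmpr2 with 2.67 ± 0.207 FPKM, each overlapping the next of the latter 3. At the low end were Tgfbr2 with 1.54 ± 0.207, Tgfbr3 with 1.40 ± 0.300 and Bmpr1b with 0.927 ± 0.193 FPKM, of which Tgfbr2 and Tgfbr3 overlapped between libraries. At 48 h the first places were again those of Bmpr1a with 22.4 ± 2.03, Acvr2b with 14.9 ± 1.03, Acvr1b with 10.1 ± 0.505 and Tgfbr1 with 9.20 ± 0.680 FPKM, and the latter pair overlapped between libraries. Bmpr2, eighth at 0 h, was sixth at 48 h with 3.76 ± 0.594 FPKM, beside Acvr2a with 3.94 ± 0.572 and Acvr1 with 3.19 ± 0.147. Bmpr2 overlapped both between libraries, whereas Acvr2a and Acvr1 did not overlap. At the low end, libraries overlapped between Tgfbr2 with 1.48 ± 0.236, Tgfbr3 with 1.47 ± 0.224 and Bmpr1b with 1.22 ± 0.117 FPKM. With the longest transcript as length in place of all exons, Bmpr1a, Acvr1b and Acvr2b kept the first 3 places at 0 h. Acvr1b with 12.7 ± 0.951 and Acvr2b with 12.3 ± 1.42 FPKM then overlapped between the 0 h libraries, so their order at 0 h depends on the length used. The lowest 0 h library of Tgfbr1, at 4.08, was then below the highest of Bmpr2, at 4.22. Likewise, the lowest 0 h library of Tgfbr2, at 2.08, was below the highest of Bmpr1b, at 2.195, so these separations depend on the length as well. With that length, Acvr2b was still above Acvr1b in every 24 h and 48 h library, and Tgfbr1 with 10.4 ± 0.772 FPKM stood above Acvr1b in the mean at 48 h. Acvr1 then stood above Acvr2a in the mean at each time. At 48 h they had 4.675 ± 0.215 and 3.94 ± 0.572 FPKM and overlapped between libraries, so their order and separation depend on the length too.

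**Figure D1:**
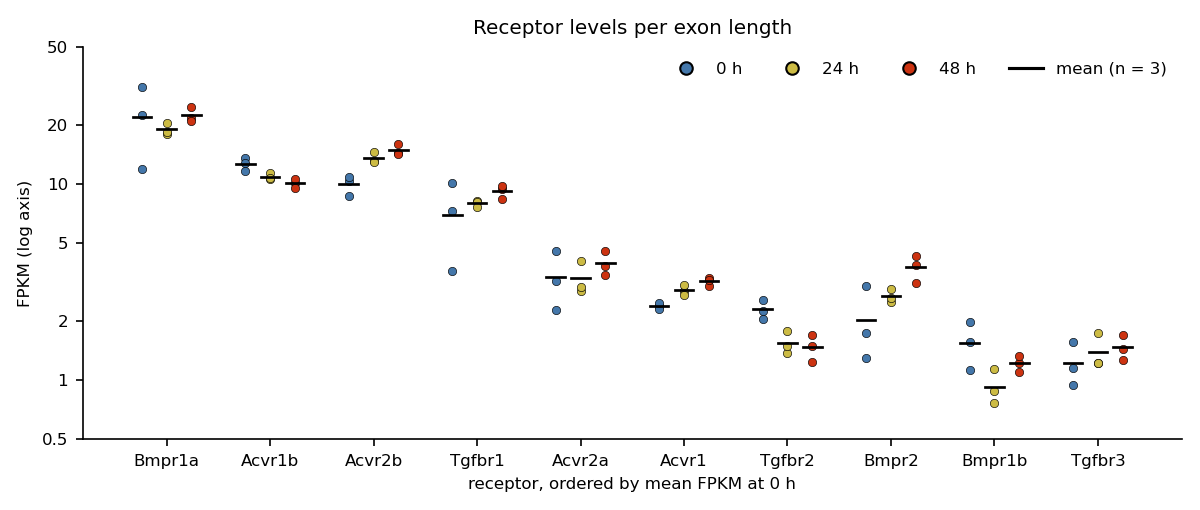
FPKM of the 10 receptors on a log axis, each point 1 library (0 h blue, 24 h yellow, 48 h red) and each bar the mean of 3. Bmpr1a, Acvr1b, Acvr2b and Tgfbr1 lie above the other receptors in the group means, and Acvr2b passes Acvr1b from 24 h on.

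Summed by type, the type II receptors held 17.6 ± 1.09 FPKM at 0 h, 21.1 ± 0.879 at 24 h and 24.1 ± 0.622 at 48 h (SD, n = 3). The libraries of the 3 times did not overlap in this sum, which ran from 16.7 to 18.8, from 20.1 to 21.8 and from 23.6 to 24.8 FPKM. Acvr2b was the largest part of it, with means of 9.96, 13.6 and 14.9 FPKM. The type II receptors did not all rise. From 0 h to 48 h Bmpr2 went from 2.02 to 3.76, Acvr2a from 3.34 to 3.94 and Tgfbr2 from 2.30 to 1.48 FPKM. The 5 type I receptors summed to 45.4 ± 12.8, 41.7 ± 1.38 and 46.2 ± 2.18 FPKM, with the 0 h libraries at 57.4, 47.0 and 31.9 on both sides of the later ones. These sums use all exons as length and are given without a test.

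Changes between the times were tested with the quasi-likelihood test of edgeR over all genes of each comparison, and a gene was called at a Benjamini-Hochberg adjusted p of up to 0.05. All 10 receptors passed the expression filter in each comparison. From 0 h to 24 h, Acvr2b rose and Tgfbr2 fell, 2 of 10 receptors beside 25.5% of the 17592 genes tested. Of all genes, 11.4% were called higher and 14.2% lower, against 1 receptor each way. From 0 h to 48 h, Acvr2b and Acvr1 rose and Tgfbr2 fell, 3 of 10 receptors beside 31.6% of the 17755 genes tested, of which 13% were called higher and 18.5% lower. From 24 h to 48 h Bmpr2 rose, 1 of 10 receptors beside 21.3% of the 17499 genes tested, of which 8.61% were called higher and 12.7% lower. No receptor was called lower in that last step, with 0 receptors lower at an unadjusted p under 0.05 and 0 in DESeq2. The called share of the receptors was thus near or below that of all genes in each comparison. The median log2 fold change of the receptors was 0.09, 0.26 and 0.19 in the 3 comparisons, beside 0.01, 0.02 and 0.00 for all genes tested. The comparisons share libraries and are not independent of each other.

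**Figure D2:**
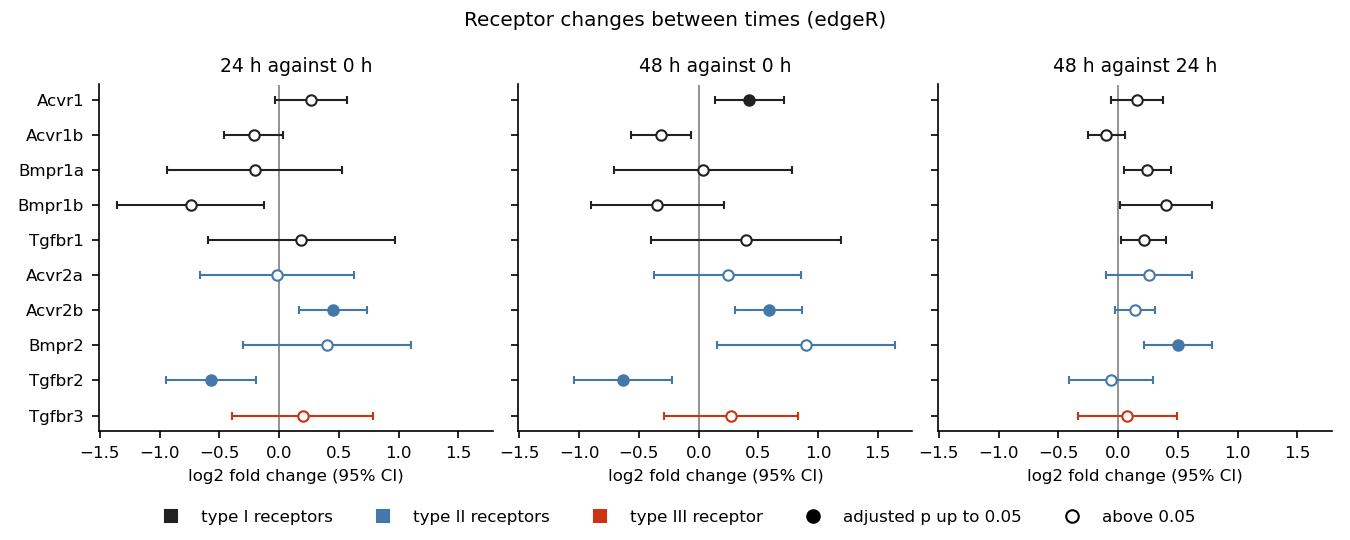
Log2 fold changes of the 10 receptors with 95% confidence intervals from edgeR in each comparison, with filled points for an adjusted p of up to 0.05. Acvr2b lies above 0 and Tgfbr2 below 0 in both comparisons with 0 h, and the interval of Bmpr2 at 48 h against 0 h runs from 0.16 to 1.64.

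Acvr2b encodes a type II receptor that binds activins with high affinity. Its CPM were 34.1, 40.7 and 42.6 at 0 h, 57.5, 51.5 and 51.1 at 24 h and 56.5, 63.1 and 55.8 at 48 h. Each later library was above each 0 h library, while the 24 h and 48 h libraries overlapped. The log2 fold change was 0.45 (SE 0.12, edgeR adjusted p = 0.0326) at 24 h and 0.59 (SE 0.12, adjusted p = 0.00915) at 48 h against 0 h, so that the mean at 48 h stood at 58.5 ± 4.06 CPM against 39.1 ± 4.501 at 0 h. From 24 h to 48 h it was 0.14 (SE 0.07, adjusted p = 0.211). The call at 48 h held without any of its 6 libraries in turn, with adjusted p of 0.00528 to 0.0463. The call at 24 h was lost without 0 h replicate 2 (0.47, adjusted p = 0.109) and without 24 h replicate 1 (0.39, 0.147), replicate 2 (0.48, 0.0978) or replicate 3 (0.48, 0.0821).

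Tgfbr2 encodes the type II receptor that binds TGF-beta itself. Its libraries stood at 21.02, 16.8 and 18.5 CPM at 0 h, at 11.2, 14.5 and 12.2 at 24 h and at 12.2, 10.1 and 14.0 at 48 h. No later library reached the lowest 0 h library. The log2 fold change was -0.57 (SE 0.16, edgeR adjusted p = 0.0374) at 24 h and -0.63 (SE 0.17, adjusted p = 0.0291) at 48 h against 0 h, which are 0.672 and 0.645 of the level at 0 h. Between 24 h and 48 h it was -0.06 (95% interval -0.41 to 0.30). The summed fibroblast, myoid, Sertoli and Leydig markers stood higher at both later times and the summed endothelial and macrophage markers lower, and the part of such cells in the fall of Tgfbr2 was not tested. At 24 h the call held in 1 of 6 fits that left out a library, the one without 0 h replicate 3 (adjusted p = 0.0429), and the adjusted p ran from 0.0429 to 0.147. At 48 h it was lost without 0 h replicate 2 (-0.71, adjusted p = 0.0519), without 48 h replicate 1 (-0.64, 0.0955) and without 48 h replicate 2 (-0.51, 0.0995).

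Bmpr2 encodes the main type II receptor for BMPs. It was measured at 54.4, 31.3 and 23.2 CPM at 0 h, 44.8, 52.1 and 47.3 at 24 h and 69.6, 56.1 and 77.2 at 48 h. The 0 h libraries were spread widely and 1 of them was above all 24 h libraries, whereas each 48 h library was above each earlier one. From 24 h to 48 h Bmpr2 rose 1.42-fold (log2 fold change 0.50, SE 0.13, edgeR adjusted p = 0.0217). At 48 h against 0 h the log2 fold change was the largest of the receptors, 0.90, with an SE of 0.32 and an adjusted p of 0.0685. Without 0 h replicate 1, the highest of the 0 h libraries, it was 1.33 (adjusted p = 0.002) at 48 h and 0.83 (adjusted p = 0.00761) at 24 h. DESeq2 also placed the 48 h value under the threshold (adjusted p = 0.0165). The rise from 24 h to 48 h was lost without 24 h replicate 1 (0.44, adjusted p = 0.0807), 24 h replicate 3 (0.51, 0.0535), 48 h replicate 1 (0.49, 0.0677) or 48 h replicate 3 (0.39, 0.0728).

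Acvr2a, the other activin type II receptor, stood at 25.8, 18.2 and 12.9 CPM at 0 h, 16.2, 23.2 and 17.1 at 24 h and 21.8, 19.5 and 25.9 at 48 h. All 3 groups overlapped. Its log2 fold changes were -0.02 (95% interval -0.66 to 0.63) at 24 h and 0.24 (-0.38 to 0.86) at 48 h against 0 h. These intervals leave room for a change of the size seen for Acvr2b. With the GC and length offsets described below, the Acvr2a values were -0.049 (SE 0.133) and -0.043 (SE 0.0993).

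Among the type I receptors, Acvr1, which encodes the BMP receptor kinase ALK2, had the closest replicates at 0 h and at 48 h. It was at 11.5, 11.1 and 11.9 CPM at 0 h, 13.8, 14.7 and 13.1 at 24 h and 14.6, 15.97 and 15.6 at 48 h. Both later groups were clear of the 0 h group. The log2 fold change was 0.27 (SE 0.13, edgeR adjusted p = 0.18) at 24 h, and at 48 h Acvr1 had risen by 0.43 (SE 0.12, adjusted p = 0.0347), or 1.34-fold. The call was lost without 0 h replicate 2 (0.40, adjusted p = 0.105) and without 48 h replicate 1 (0.46, 0.0927), replicate 2 (0.41, 0.121) or replicate 3 (0.42, 0.123).

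Acvr1b encodes ALK4, the type I receptor of activin. Its values were 51.5, 59.9 and 56.4 CPM at 0 h, 50.2, 47.0 and 47.2 at 24 h and 44.9, 46.8 and 42.3 at 48 h. The 3 groups did not overlap, each later one being lower, but no step passed the test. The log2 fold change was -0.21 (SE 0.11, edgeR adjusted p = 0.193) at 24 h and -0.32 (SE 0.11, adjusted p = 0.0585) at 48 h against 0 h. Without 0 h replicate 1 the 48 h value was -0.37 (adjusted p = 0.0337). With the libraries scaled by their totals alone it was -0.21 (adjusted p = 0.191).

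Bmpr1a and Bmpr1b encode ALK3 and ALK6, the main type I receptors of BMP4. Bmpr1a stood at 198.4, 142.1 and 76.0 CPM at 0 h, 114.8, 130.6 and 117.2 at 24 h and 137.4, 133.0 and 157.2 at 48 h. The 0 h libraries enclosed all later ones, and the log2 fold change was -0.21 (95% interval -0.94 to 0.53) at 24 h and 0.04 (-0.71 to 0.78) at 48 h against 0 h. From 24 h to 48 h it was 0.25 (SE 0.09, edgeR adjusted p = 0.079) with no overlap of the groups, and DESeq2 gave an adjusted p of 0.0345. In 1 edgeR fit over all 9 libraries the adjusted p was 0.649. With the GC and length offsets described below, the Bmpr1a step was 0.025 (edgeR adjusted p = 0.814). Bmpr1b was far lower, at 11.7, 9.30 and 6.70 CPM at 0 h, 6.79, 4.53 and 5.26 at 24 h and 6.56, 7.28 and 7.96 at 48 h. At 24 h against 0 h its log2 fold change was -0.74 (SE 0.27, adjusted p = 0.0808), with the highest 24 h library just above the lowest 0 h library. Without 0 h replicate 3, the lowest of the 0 h libraries, it was -0.91 (adjusted p = 0.0178), and DESeq2 gave an adjusted p of 0.0486.

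Tgfbr1 encodes ALK5, the type I partner of TGFBR2. Its libraries were at 66.1, 47.4 and 23.5 CPM at 0 h, 53.8, 52.9 and 49.9 at 24 h and 61.6, 55.1 and 63.6 at 48 h. The 48 h group was above the 24 h group, and both lay within the span of the 0 h libraries. The log2 fold change was 0.21 (SE 0.08, edgeR adjusted p = 0.0998) from 24 h to 48 h and 0.40 (95% interval -0.40 to 1.19) at 48 h against 0 h. Tgfbr3, the co-receptor, stood at 10.2, 7.56 and 6.14 CPM at 0 h, 7.99, 11.4 and 8.04 at 24 h and 9.38, 8.25 and 11.2 at 48 h. The groups overlapped, and its log2 fold changes of 0.20, 0.27 and 0.08 in the 3 comparisons had adjusted p of 0.631, 0.436 and 0.805.

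**Figure D3:**
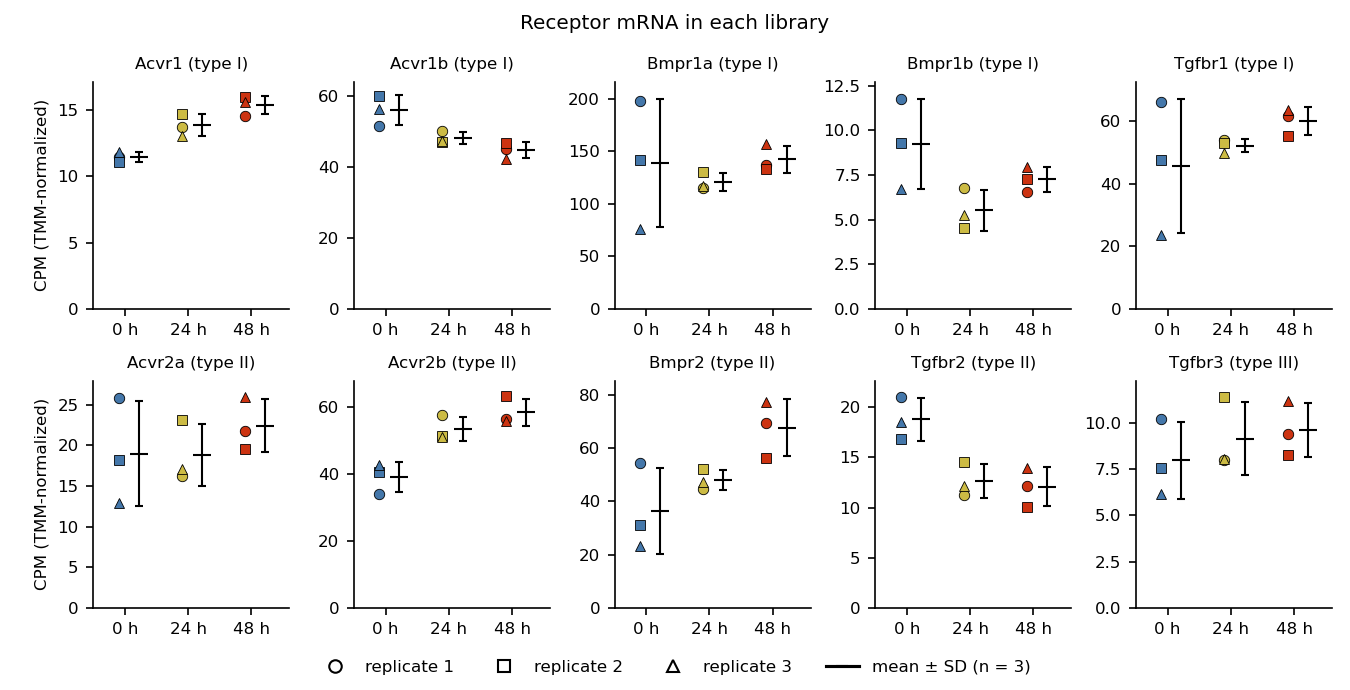
TMM-normalized CPM of each receptor in each library, with circles, squares and triangles for replicates 1, 2 and 3 and the mean ± SD (n = 3) beside them; axes start at 0. For Bmpr1a, Bmpr1b, Tgfbr1, Acvr2a, Bmpr2 and Tgfbr3, 0 h replicate 1 is the highest and 0 h replicate 3 the lowest of the 0 h libraries.

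The wide spread at 0 h went with the GC content of the transcripts. The 5 receptors of lowest GC content, Acvr2a (39.9%), Bmpr2 and Tgfbr1 (41% each), Bmpr1a (41.3%) and Bmpr1b (42.2%), had coefficients of variation over the 0 h replicates of 34.3%, 44.6%, 46.7%, 44.1% and 27.3%. Acvr1 (48.7%), Tgfbr2 (49.6%), Acvr1b (53.5%) and Acvr2b (54.4%) had 3.29%, 11.3%, 7.51% and 11.5%, and Tgfbr3 (48.6%) had 25.9%. Across all genes, too, the spread was widest at low GC content. The median coefficient of variation at 0 h was 36.1% for 1486 genes of up to 42% GC and 11.5% for 2010 genes between 48% and 51%. It did not fall further, and was 17.6% for 3579 genes above 54%. In the genes of up to 42% GC, 0 h replicate 1 was at 2.07 times 0 h replicate 3 in the median, whereas above 54% it was at 0.728 times. For Acvr2b, which is above 54%, it was at 0.799 times.

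Offsets for GC content and transcript length in each library changed which receptors were called. They raised the calls over all genes as well, to 36% at 24 h and 42.8% at 48 h against 0 h, beside 4 and 5 of 10 receptors, and left 20.8% from 24 h to 48 h, beside 1 receptor. With them, Bmpr2 had a log2 fold change of 0.37 (edgeR adjusted p = 0.0186) at 24 h and 0.50 (adjusted p = 0.00412) at 48 h against 0 h and was called higher in both. Its step from 24 h to 48 h shrank to 0.13 (adjusted p = 0.168) and was no longer called. The step of Bmpr1a shrank as well, to 0.025 (adjusted p = 0.814). Bmpr1b was called lower in both comparisons with 0 h, with -0.78 (adjusted p = 0.0154) and -0.57 (adjusted p = 0.0123). The calls of Acvr2b (0.53 and 0.81, adjusted p = 0.00165 and 0.000127), Tgfbr2 (-0.56 and -0.66, adjusted p = 0.0172 and 0.00843) and Acvr1 at 48 h (0.53, adjusted p = 0.00633) held. Acvr2b was then also called from 24 h to 48 h, at 0.29 (adjusted p = 0.0151).

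**Figure D4:**
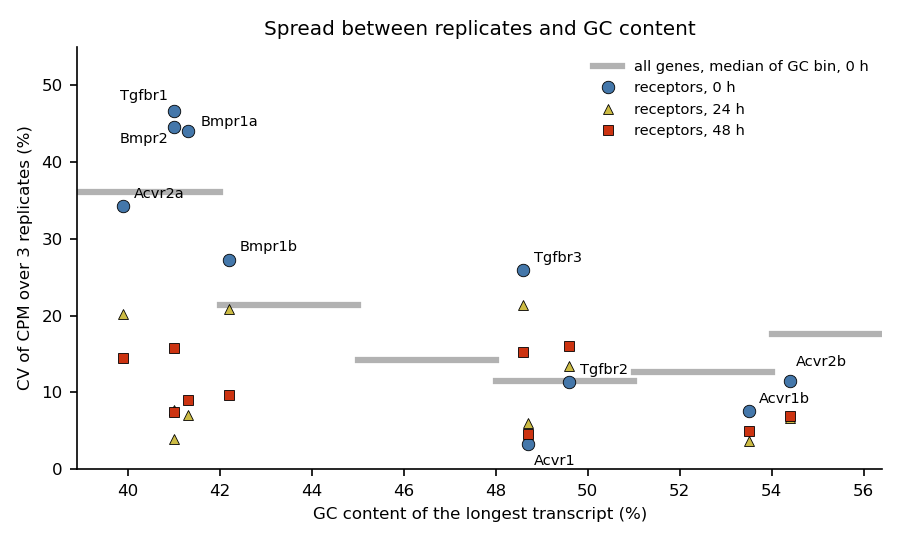
Coefficient of variation of CPM over 3 replicates against the GC content of the longest transcript, for each receptor at 0 h (blue circles), 24 h (yellow triangles) and 48 h (red squares), with grey bars for the median of all genes in each GC bin at 0 h. At 0 h Tgfbr1, Bmpr2 and Bmpr1a reach 44.1% to 46.7%, while their values at 24 h and 48 h are at most 15.8%.

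Ratios between selected pairs of receptors were taken per exon length within each library and are given without a test. Acvr1b to Tgfbr1, the type I receptors of activin and TGF-beta, had a ratio of 2.19 ± 1.23 at 0 h, 1.37 ± 0.0442 at 24 h and 1.11 ± 0.137 at 48 h (SD, n = 3). The 0 h libraries at 1.15, 1.87 and 3.55 overlapped the later ones. Tgfbr2 to Tgfbr1 went from 0.389 ± 0.209 over 0.193 ± 0.0264 to 0.160 ± 0.0145, and here each 0 h library, at 0.254, 0.283 and 0.629, was above each later one. Bmpr1a exceeded Bmpr1b in every library, with a ratio of 13.6 ± 2.68 at 0 h, 21.3 ± 5.59 at 24 h and 18.5 ± 1.26 at 48 h. Acvr2b exceeded both Acvr2a and Bmpr2, with Acvr2a at 0.347 ± 0.161, 0.245 ± 0.0595 and 0.267 ± 0.0538 of it and Bmpr2 at 0.212 ± 0.121, 0.198 ± 0.0258 and 0.255 ± 0.0554. The receptors of these pairs differ in GC content except Bmpr1a and Bmpr1b, so the 0 h spread enters the ratios.

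The genes with the most similar patterns were sought for Bmpr2 and Bmpr1b, whose group means had the widest ranges, 0.98 and 0.71 on the log2 scale. Over the 9 libraries and 12611 genes, the centred log2 CPM of Bmpr2 differed least from those of Lcor (root mean square difference 0.09), Neto2 (0.09) and Zfp959 (0.12). Lcor had 38.6 ± 16.5, 49.1 ± 2.68 and 70.3 ± 11.6 CPM at the 3 times. For Bmpr1b the nearest were Plekha1, Arhgap28 and Ralgapa2, each at 0.15. Plekha1 had 94.3 ± 26.0, 54.4 ± 5.78 and 74.8 ± 1.95 CPM. The match is over single libraries and so includes the spread between the 0 h replicates. In 0 h replicates 1, 2 and 3, Lcor was at 56.7, 34.5 and 24.6 CPM and Plekha1 at 116.9, 100 and 65.9, falling in the same order as Bmpr2 and Bmpr1b. How much of the likeness comes from that spread was not tested.

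The other genes of the pathway were read from the same fits, in lists taken from general knowledge. The shares of all genes called are those given above for the receptors. The lists share genes, so that 1 change can count in more than 1 list. Smad7 is among the SMAD genes and in both lists of target genes, and Smad6 among the SMAD genes and BMP targets. Skil, Tgif1 and Pmepa1 are among the intracellular regulators and the activin and TGF-beta targets. Of 10 other receptors and co-receptors, 6 were tested. Of these, 3 were called lower at 24 h and 2 at 48 h against 0 h, none higher (0 at an unadjusted p under 0.05 and 0 in DESeq2), and 1 was higher from 24 h to 48 h. Acvrl1, the BMP9 receptor known from endothelium, had 27.99 ± 5.51 CPM before co-culture and fell to 5.23 ± 0.418 within 24 h and 4.54 ± 0.259 by 48 h (log2 fold changes -2.42 and -2.62, edgeR adjusted p = 0.000107 and 6.3e-05). Eng, its co-receptor endoglin, fell from 23.4 ± 3.82 to 8.59 ± 1.17 and 9.91 ± 0.291 CPM (-1.44 and -1.24, adjusted p = 0.000889 and 0.00082). The endothelial marker sum was 43.2 to 47.8 CPM before co-culture, 14.4 to 18.9 after 24 h and 12.3 to 12.7 after 48 h, and its part in these falls was not tested.

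Of the 32 ligand genes, 31 were counted, and 19 were tested at 24 h against 0 h, with 6 higher and 5 lower. At 48 h against 0 h, 6 of 21 were higher and 6 lower. Inha, the alpha subunit of inhibins, rose from 0.772 ± 0.193 to 24.2 ± 9.06 CPM within 24 h and had 21.3 ± 1.74 by 48 h. Inhba, the subunit of activin A, rose from 0.226 ± 0.216 to 7.73 ± 0.814 and 11.6 ± 2.80 CPM, and Tgfb3 was at 0.862 ± 0.585, 4.55 ± 1.21 and 9.11 ± 0.675 CPM, with a log2 fold change of 3.43 at 48 h (edgeR adjusted p = 0.000959). Amh, a Sertoli cell hormone, had 0.132 ± 0.124 CPM before co-culture, 5.81 ± 2.11 after 24 h and 0.820 ± 0.330 after 48 h. From 24 h to 48 h, Amh (-2.83, adjusted p = 0.00116) and Bmp6 (-1.08, adjusted p = 0.0012) fell and Tgfb3 rose (1.01, adjusted p = 0.00688). Among 18 ligands tested there, 1 was higher and 5 lower. In the ligand list the median against 0 h was 0.39 on the log2 scale after 24 h, and 0.09 after 48 h.

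Among 13 extracellular antagonists, 11 were tested, of which 3 were called higher and 3 lower after the first day. Against 0 h, the 48 h cells had 5 higher and 4 lower, and the second day had 2 of each. Sost, sclerostin, fell from 33.1 ± 8.27 to 0.813 ± 0.0374 CPM within 24 h (-5.34, edgeR adjusted p = 1.8e-05), with 0.469 ± 0.552 CPM left by 48 h. Chrd, chordin, a trap for BMPs, fell over 48 h from 15.6 ± 1.78 to 1.98 ± 0.479 CPM. Bmper rose from 0.890 ± 0.136 to 6.78 ± 1.77 and 9.01 ± 1.18 CPM. Fstl3, which binds activin, rose to 9.47 ± 1.66 CPM at 24 h from 1.90 ± 0.259 and fell to 4.95 ± 0.594 at 48 h, and Grem1 rose on the second day from 2.62 ± 0.0107 to 15.4 ± 4.43 CPM.

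All 8 SMAD genes were tested, and 3 were higher and 1 lower in each comparison with 0 h, beside 3 and 2 on the second day. Smad3, which carries the activin and TGF-beta signal, rose from 33.1 ± 3.03 to 58.7 ± 3.81 CPM at 24 h (0.83, edgeR adjusted p = 0.00211) and was at 46.3 ± 4.37 at 48 h. Smad1, which carries the BMP signal, rose from 38.8 ± 3.24 to 52.8 ± 3.18 CPM at 24 h (0.45, adjusted p = 0.0319). Over 48 h Smad9 rose from 2.23 ± 0.636 to 10.7 ± 0.828 CPM and Smad5 fell from 87.6 ± 15.5 to 52.0 ± 0.653 (-0.75, adjusted p = 0.00938). Smad7, an inhibitor of type I receptors, fell from 71.8 ± 18.2 to 46.4 ± 1.09 CPM at 24 h (-0.62, adjusted p = 0.0388) and rose to 62.5 ± 7.19 by 48 h (0.44, adjusted p = 0.00771). Of 14 intracellular regulators, 3 were higher and 3 lower in each comparison with 0 h, and 2 and 3 on the second day. The 24 h calls of Smad1 and Smad7 depended on single libraries. With a library left out, Smad1 was called in 2 of 6 fits (those without 0 h replicate 1 or 3, adjusted p up to 0.142) and Smad7 in 1 of 6 (that without 0 h replicate 1, -0.79, adjusted p up to 0.139). Pmepa1, which keeps SMADs from the receptor, rose from 27.7 ± 4.84 to 60.9 ± 6.12 CPM at 24 h. Fkbp1a, the FKBP12 protein that binds type I receptors, fell over 48 h from 395.1 ± 48.7 to 261.0 ± 19.7 CPM (-0.59, adjusted p = 0.00789), a call lost without 48 h replicate 1 (adjusted p = 0.0519).

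Known BMP target genes moved both ways at 24 h against 0 h, with 3 of 10 higher and 4 lower, and 4 were higher and 2 lower at 48 h. From 24 h to 48 h, 6 of 10 were higher and none lower (0 at an unadjusted p under 0.05 and 0 in DESeq2), beside 8.61% higher and 12.7% lower of all genes tested. The median log2 fold change was 0.73 beside 0.00 for all genes. Id2 was at 0.845 ± 0.444, 17.2 ± 1.62 and 56.2 ± 1.04 CPM, and Id1 at 18.3 ± 2.91, 61.0 ± 6.16 and 135.4 ± 12.6. Both rose from 24 h to 48 h, by 1.72 (edgeR adjusted p = 1.95e-05) and 1.15 (adjusted p = 0.000175) on the log2 scale, as did Id3, by 1.03 (adjusted p = 7.18e-05). Id4 and Msx2 fell at 24 h, from 37.4 ± 3.21 to 6.62 ± 0.659 and from 15.2 ± 2.77 to 2.48 ± 0.418 CPM. Of 8 known activin and TGF-beta target genes, 3 were higher and 4 lower at 24 h, and 2 each way at 48 h against 0 h as well as on the second day. Ccn2 rose from 8.64 ± 3.47 to 34.3 ± 3.16 CPM at 24 h, Tgif1 fell from 23.6 ± 0.544 to 5.14 ± 0.680 and Cdkn1a fell from 89.0 ± 22.3 to 38.7 ± 1.31. The stromal marker sum was higher at both later times, and its part in the changes of these lists was not tested. At 48 h against 0 h the median log2 fold change was -0.02 for the other receptors, 0.31 for the antagonists, 0.02 for the SMAD genes, -0.05 for the regulators, 0.16 for the BMP targets and -0.12 for the activin and TGF-beta targets, beside 0.02 for all genes tested.

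**Figure D5:**
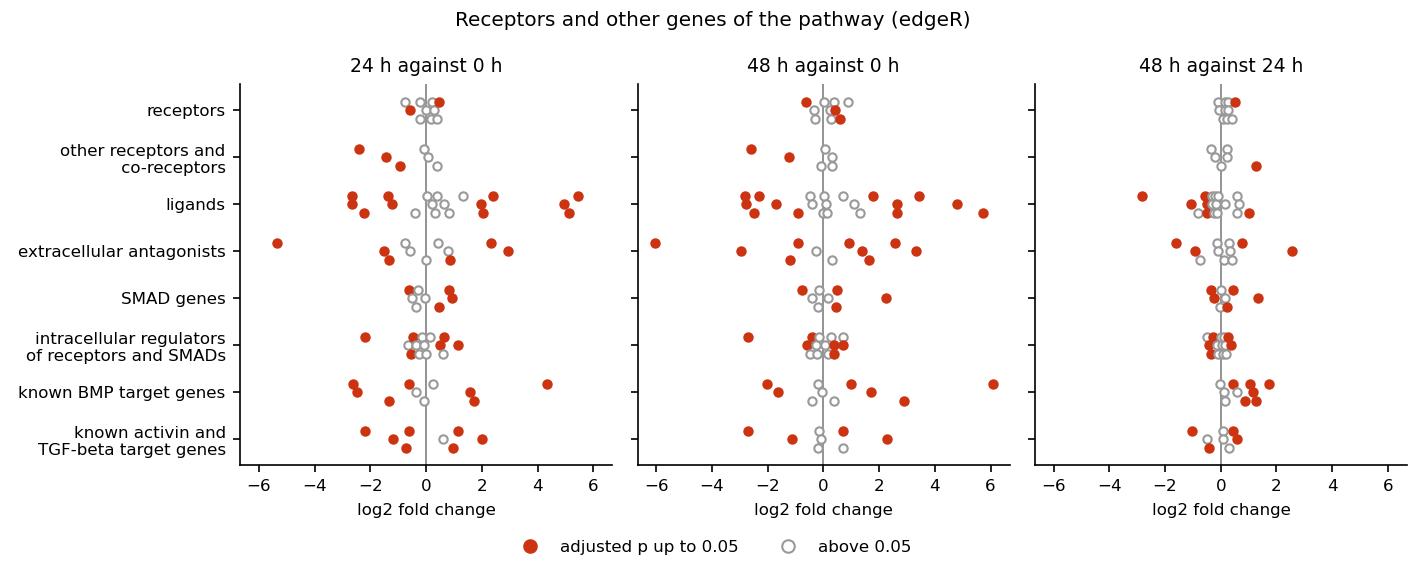
Log2 fold changes of the 10 receptors and of the tested genes in each pathway list, 1 point a gene, red where the edgeR adjusted p was up to 0.05. The receptors span -0.74 to 0.90 over the 3 comparisons, while Inhba among the ligands reaches 5.72 and Sost among the antagonists -6.06.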

How the data were processed

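Poly-A RNA of 9 libraries, 3 at each time, was sequenced by the authors, who deposited raw counts of reads per Ensembl gene without normalization. The submitters' processing notes name fastp, HISAT2, featureCounts and GRCm38. The annotation release and the strand setting are not given in the sources used here. Of the 46078 identifiers, 45229 were found in GENCODE M21 (GRCm38), which gave symbols, exons and lengths.

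Libraries held 16825251 to 22201892 counts. Each comparison used the 6 libraries of its 2 groups, the filter filterByExpr, TMM scaling and edgeR's quasi-likelihood F test (two-sided; edgeR 4.0.16, R 4.3.3). Benjamini-Hochberg adjustment covered every gene tested, with a threshold of 0.05. CPM are TMM-normalized over the 9 libraries, FPKM divide them by exon length, and ± is the SD. Log2 CPM used a prior count of 2. A marker was taken as at the floor with at most 3 counts in each library of a group.

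All 10 receptors are named. Of each pathway list, up to 3 genes a comparison with the largest change among those called with at least 5 CPM in 1 group are named. 1 gene that the rule names is not reported here. The receptors and lists were chosen with earlier results of these data known. Alternatives were DESeq2 1.42.0, its size factors, library size alone, other filters, 1 fit over 9 libraries, a replicate block, GC and length offsets (splines with 5 and 4 degrees of freedom), a fold of at least 1.3 and leaving out each library. The procedure was tested on simulated data. These had the same dispersion for every gene, no GC bias between libraries and changes larger than those of the receptors in the main fits. They do not show how well changes of the receptors' size are found in libraries such as these. Shared sequence was sought with BLAST 2.17.0, and figures were drawn with matplotlib 3.10.9.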

Additional observations from a re-analysis of the deposited data

How the results depend on the processing

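The receptors called at 24 h against 0 h numbered 2. They were 1 with library size alone, without an expression filter or with at least 10 counts in every library, 4 with GC and length offsets, and 0 to 3 when a library was left out. At 48 h against 0 h they numbered 3, and 5 with all 9 libraries in 1 fit or with the offsets, and 1 to 5 with a library left out. At 48 h against 24 h there was 1, with 2 in DESeq2 and without an expression filter, 0 with all 9 libraries in 1 fit (0 at an unadjusted p under 0.05) and 0 to 3 with a library left out. Calls over all genes ran from 2607 to 6023 (4494 with all libraries), from 3471 to 7116 (5602) and from 1857 to 4356 (3732) with a library left out, and from 24 h to 48 h they were 1043 in the fit over 9 libraries. The cause was not tested. The 1.3-fold threshold changed no receptor call.

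No pairing of the libraries by replicate number was detected. Same-numbered libraries deviated together by correlations of -0.34, 0.04 and -0.10, of 0.09, 0.26 and -0.36 and of 0.00, -0.06 and 0.13 in the 3 comparisons. Deviations from means of 3 libraries, with the wide spread at 0 h, cannot exclude such a pairing. With a replicate block, 0 receptors were called at 24 h against 0 h (3 at an unadjusted p under 0.05) and 0 at 48 h against 24 h (2 unadjusted), and Acvr2b and Tgfbr2 at 48 h against 0 h.

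Scaling by library size alone put the median log2 fold change of all genes at 0.12 at 24 h and 0.13 at 48 h against 0 h, and the share of higher calls from 44.5% to 57.1% and from 41.2% to 52.8%. The calls of Tgfbr2 were lost with it (-0.46, adjusted p = 0.0771, and -0.52, 0.0517), and that of Bmpr2 at 48 h was gained (1.01, 0.0469).

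Signs turned only for changes that were not called. With the offsets, Acvr1b and Tgfbr1 at 48 h against 24 h were 0.005 and -0.016, and Acvr2a and Bmpr1a at 48 h against 0 h were -0.043 and -0.18. Acvr2a at 24 h was 0.10 with library size alone, 0.027 with at least 10 counts and 0.029 with the block. With a library left out, Acvr2a at 24 h ran from -0.21 to 0.29 (0.08 without 24 h replicate 1, 0.05 without 24 h replicate 3), Bmpr1a from -0.48 to 0.16 at 24 h and from -0.24 to 0.40 at 48 h (-0.04 without 48 h replicate 3), Tgfbr1 at 24 h from -0.11 to 0.57, and from 24 h to 48 h Tgfbr2 from -0.18 to 0.073 (0.059 without 24 h replicate 2) and Tgfbr3 from -0.052 to 0.27 (-0.025 without 24 h replicate 1). Of the other receptor changes, 381 values kept their sign and call, 31 lost a call and 20 gained one. Only called changes can lose a call, and many of the kept values are changes called in neither fit. Against 0 h, calls held in 2 of 6 fits without a library and 7 of 9 other settings for Acvr2b at 24 h, and in all at 48 h. For Tgfbr2 these were 1 and 6 at 24 h and 3 and 8 at 48 h, and for Acvr1 at 48 h 2 and 7. For Bmpr2 from 24 h to 48 h they were 2 and 6. With 3 libraries a time and the 0 h spread, the 95% intervals at 48 h against 0 h were wide, from -0.38 to 0.86 for Acvr2a, from -0.71 to 0.78 for Bmpr1a and from -0.40 to 1.19 for Tgfbr1. With the offsets, the SE of these changes went from 0.263 to 0.0993, from 0.319 to 0.12 and from 0.34 to 0.137.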
